A study of Pan troglodytes with 8 samples.

Results

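Adhesion G protein-coupled receptors were examined as a gene family across 4 cell populations sorted from chimpanzee cerebral organoids. The members were taken by name, as each gene of the chimpanzee-genome count table whose symbol starts with ADGR followed by a subfamily letter from A to V and 1 digit. There were 29 such genes among 60583 named rows, and rows with a longer name, such as antisense transcripts and ADGRE4P, were not counted as members. The 3 CELSR genes belong to the same receptor class under another name and are described separately below. The organoids were grown from SandraA, an induced pluripotent stem cell line of Pan troglodytes, and collected at week 8 of culture within 3 days either side. No genetic change or treatment is labelled, and the groups compared are the 4 sorted populations. Cells were separated by fluorescence-activated sorting into apical radial glia (aRG), the stem cells lining the ventricle, basal radial glia (bRG), which have left that surface, basal intermediate progenitors (bIP), and BCL11B-positive neurons (N). Each population had 2 libraries, numbered 1 and 2, made from the RNA of 10000 cells, and all came from this 1 cell line. Because the rule reads names and no measured value, the differences between populations could be tested. The choice of members was still made with earlier results of these data known.

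Adhesion receptors of this class join a long extracellular part, built of domains that bind proteins on other cells or in the matrix, to a membrane-spanning receptor that signals through G proteins. Many of them cut themselves next to the membrane in a domain called GAIN, and the freed end of the membrane part can act as a tethered agonist once the extracellular part is pulled away. In the developing cortex ADGRG1 (GPR56) is the best known, since loss of its function in people causes a cortical malformation with breaches of the pial basement membrane. Latrophilins (ADGRL) and the BAI receptors (ADGRB) are known mainly for roles at synapses, CELSR receptors for planar polarity and axon guidance, and ADGRV1 for stereocilia of inner ear hair cells.

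Levels are given as CPM, read counts scaled to library sizes that were adjusted by TMM, and where 2 values are given for a population they belong to the libraries numbered 1 and 2 in that order. Library totals were 24649971 to 33245892 counts, and 3 counts corresponded to 0.0885 to 0.130 CPM. Longer transcripts collect more reads, and no transcript lengths were used, so a gene is compared between populations and not with another gene. Radial glia markers followed the sort, with a summed level of 2883 and 2691 CPM for 5 genes in aRG, 1980.2 and 1512 in bRG, 441 and 383 in bIP, and 142 and 59.7 in N. EOMES, the transcription factor of intermediate progenitors, stood at 1357 and 1540.3 CPM in bIP and at 184 or less elsewhere. The 5 neuron markers summed to 254 and 489 CPM in aRG, 544 and 924 in bRG, 1860.2 and 2351 in bIP, and 3410 and 2839 in N. They separated N from bIP less well, with 0 of 5 called between these populations by edgeR. Mean levels of RBFOX3 (200 against 137 CPM) and TUBB3 (25.8 against 18.1) were higher in bIP than in N, and those of BCL11B, DCX and STMN2 were higher in N. Marker lists of cell types outside the sort were unequal for choroid plexus (8 of 8 genes detected, summed level 894 and 3258 CPM in aRG and 38.0 to 78.8 in the other 6 libraries) and mesenchyme (8 of 8 detected, 401 and 2034 CPM in aRG, 294 and 354 in bRG, 136 and 151 in bIP, and 41.7 and 18.6 in N). Nothing in the labels ties the 2 libraries of a population to separate cultures, and the p-values rest on their spread, which may be purely technical.

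Of the 29 members, 26 reached a mean of 1 CPM in some population, and ADGRE1, ADGRE2 and ADGRE3 did not. A low-count filter over all genes kept 28 members and removed ADGRE3. Family reads made up 0.115% to 0.150% of a library, and ADGRB2, ADGRL1, ADGRG1, ADGRB3 and ADGRA3 supplied 79.7% to 87.9% of these. By mean level, 12 of the 26 were highest in bIP, 5 in aRG, 5 in N and 4 in bRG, and 15 were lowest in N, 9 in aRG, 2 in bRG and 0 in bIP. These positions ignore the spread between libraries, and their shares over all genes were not computed. Each member counts equally in them, whatever its level. The summed level of the family was 1119 and 1202 CPM in aRG, 1162 and 1260 in bRG, 1506 and 1247 in bIP, and 1758 and 1563 in N. In a test of any difference among the 4 populations (edgeR, Benjamini-Hochberg adjusted p under 0.05 over 35382 genes), 5 of 28 members were called, where 7.62% of all genes tested were. They were ADGRV1 (adjusted p = 8.36e-05), ADGRA3 (0.0114), ADGRB1 (0.0164), ADGRB2 (0.0179) and ADGRL1 (0.0201), and without N replicate 2 the count was 3. DESeq2 called 6 (background 13.7%), adding ADGRL3 (adjusted p = 0.00263, against 0.0566 by edgeR), and 8 members had an unadjusted edgeR p under 0.05 (17.9% of all genes).

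**Figure D1:**
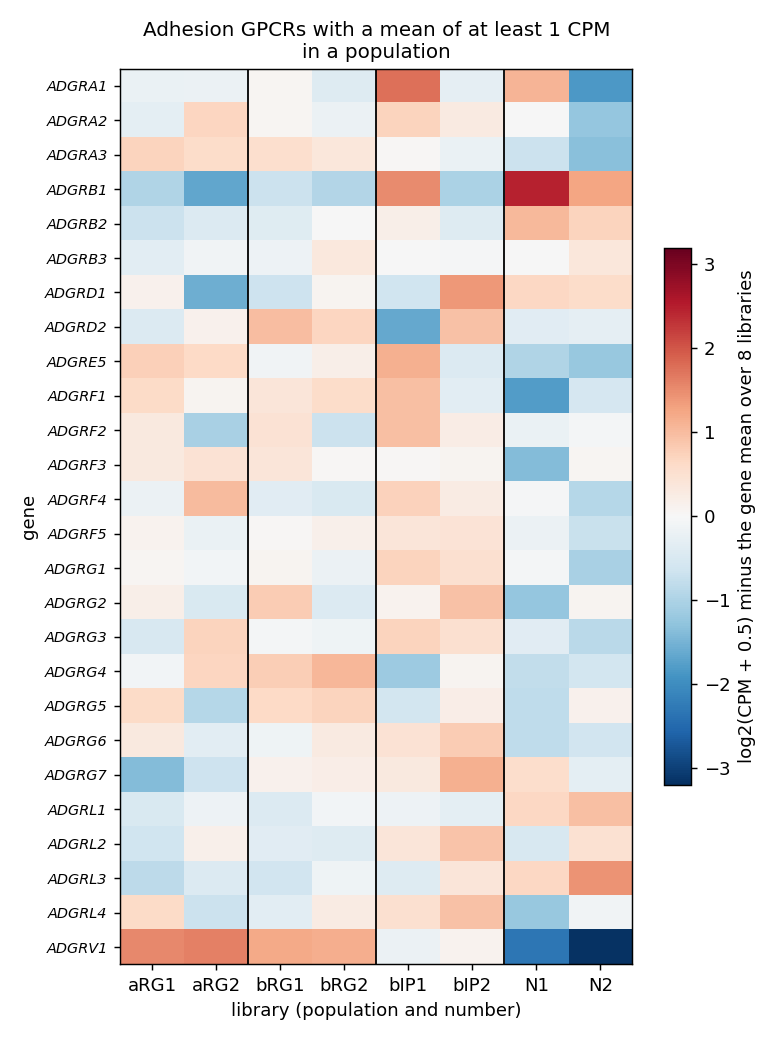
Colour gives log2(CPM + 0.5) of each of the 26 members that reached a mean of 1 CPM in a population, minus the gene's own mean over 8 libraries, with libraries as columns and vertical lines between populations. ADGRV1 is red in the 4 radial glia libraries and blue in both N libraries, ADGRB1 runs the other way, and many genes with few counts differ as much between the 2 libraries of a population as between populations.

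ADGRV1 and ADGRA3 were the members that edgeR called lower in neurons than in both radial glia populations. ADGRV1, the very large receptor whose loss causes a form of Usher syndrome, was at 119.8 and 125 CPM in aRG, 94.8 and 92.2 in bRG, 35.8 and 43.9 in bIP, and 7.81 and 4.06 in N. The mean was 123 ± 3.77 CPM in aRG and 5.93 ± 2.65 in N (SD, n = 2). The libraries of the 4 populations did not overlap, so the order aRG, bRG, bIP, N also held within both library numbers. N was lower than aRG (log2 fold change −4.36, SE 0.36, adjusted p = 1.61e-05), lower than bRG (−3.97, SE 0.35, adjusted p = 4.22e-05), and lower than bIP (−2.74, SE 0.34, adjusted p = 0.00135). These 3 calls held when any single library was left out. In bIP it was lower than in aRG (−1.62, SE 0.32, adjusted p = 0.0157), a call lost without bIP replicate 1 (adjusted p = 0.112) and without bIP replicate 2 (0.0604). Neighbouring steps along that order did not all pass, with −1.23, SE 0.31, adjusted p = 0.109 for bIP against bRG (DESeq2 adjusted p = 0.0147) and −0.39, SE 0.31, adjusted p = 1 for bRG against aRG. In sorted populations measured in bulk, fewer cells of a type and less RNA per cell cannot be told apart. SOX2, a neural stem cell factor, stood at 25 and 11.7 CPM in N against 958 and 850.0 in aRG. The part of radial glia within the N gate in these values was not tested. The 4 astrocyte markers, some of which radial glia also express, summed to 59.8 and 69.1 CPM in aRG, 68.2 and 54.4 in bRG, 15.2 and 18.0 in bIP, and 6.34 and 3.5 in N, and their part was not tested either. Choroid plexus and mesenchyme markers were 894 and 401 CPM in aRG library 1 against 3258 and 2034 in aRG library 2, and ADGRV1 was at 119.8 and 125 CPM and ADGRA3 at 134 and 122 in these libraries. The part of such cells in the levels of ADGRV1 and ADGRA3 was not tested.

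ADGRA3 (GPR125), an orphan receptor with a leucine-rich extracellular part, was at 134 and 122 CPM in aRG, 118 and 105 in bRG, 82.6 and 69.5 in bIP, and 50.3 and 31.5 in N. Here too no libraries of different populations overlapped, and the order was the same as for ADGRV1 with smaller steps. N was lower than aRG (log2 fold change −1.65, SE 0.29, adjusted p = 0.00267) and lower than bRG (−1.45, SE 0.29, adjusted p = 0.00991), the latter call lost without N replicate 2 (adjusted p = 0.0834). The steps from aRG to bRG (−0.20, adjusted p = 1), from aRG to bIP (−0.75, 0.24) and from bIP to N (−0.89, 0.136) did not pass. On the log2 scale the fall of ADGRV1 from aRG to N was 4.36 and that of ADGRA3 1.65, and the difference between the genes was not tested.

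**Figure D2:**
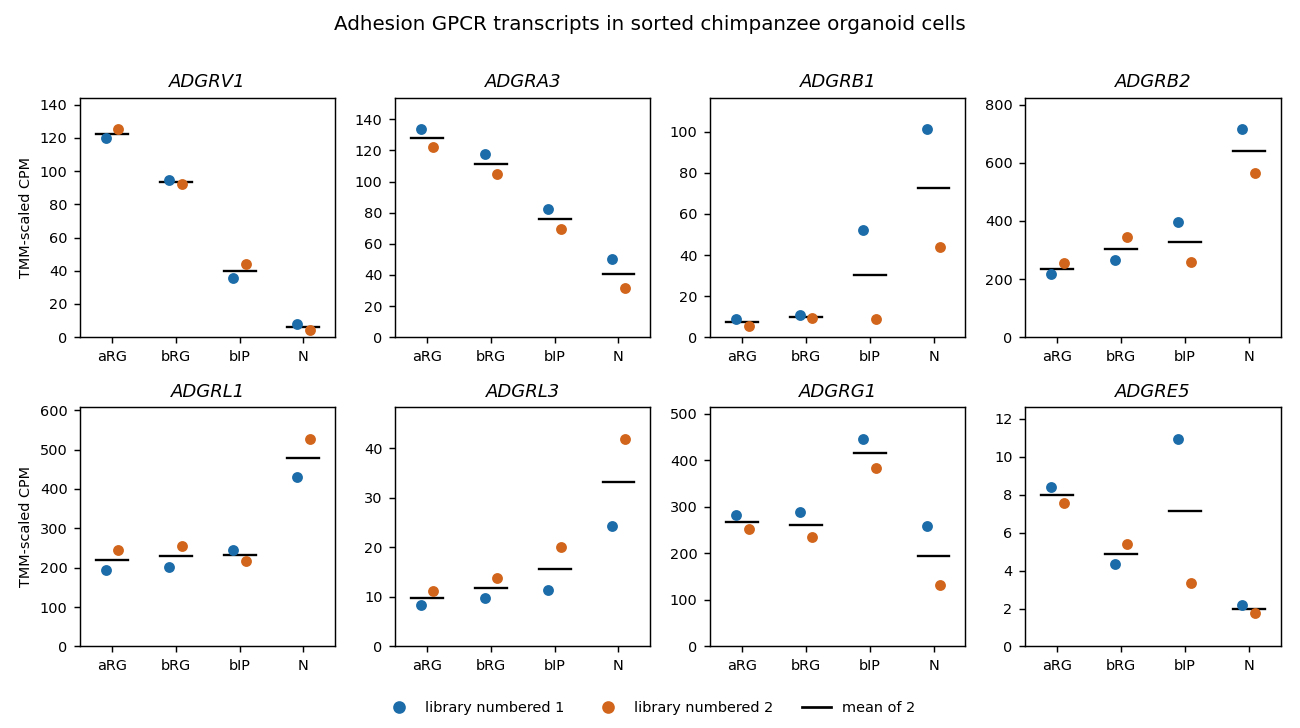
Each panel plots TMM-scaled CPM of 1 gene on a linear axis from 0 by population, with a dot per library coloured by its number and a bar at the mean of 2. ADGRV1 and ADGRA3 step down from aRG to N, ADGRB2, ADGRL1 and ADGRL3 are highest in both N libraries, and ADGRG1 is highest in both bIP libraries. For ADGRB1 both N libraries lie above those of radial glia, and N library 2 lies below bIP library 1. The bIP libraries of ADGRB1 and ADGRE5 lie far apart.

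Receptors of the BAI subfamily rose toward neurons for 2 of 3 members. ADGRB1, which recognises phosphatidylserine on dying cells and also acts at dendritic spines, was at 9.01 and 5.37 CPM in aRG, 11 and 9.11 in bRG, 52.0 and 8.73 in bIP, and 101 and 44.1 in N. Both N libraries stood above both libraries of either radial glia population, and the bIP libraries lay far apart, 1 of them at the level of radial glia. The 5 neuron markers summed to 1860.2 and 2351 CPM in the same bIP libraries, and the part of neurons in these ADGRB1 levels was not tested. N was higher than aRG (log2 fold change 3.34, SE 0.70, adjusted p = 0.00853) and higher than bRG (2.85, SE 0.68, adjusted p = 0.0279). The first call held with each library left out in turn, and the second was lost without N replicate 1 (adjusted p = 0.108) and without bRG replicate 2 (0.0519). For bIP against aRG edgeR gave 2.08, SE 0.67, adjusted p = 0.15, DESeq2 an adjusted p of 0.0124, and the differences within library numbers 1 and 2 were 2.47 and 0.65. ADGRB2 was at 216 and 254 CPM in aRG, 264 and 344 in bRG, 395 and 259 in bIP, and 715 and 564 in N. Both N libraries were above the 6 others, and N was higher than aRG (1.44, SE 0.28, adjusted p = 0.00539) and than bRG (1.07, SE 0.28, adjusted p = 0.0407). Against aRG the call did not survive leaving out aRG replicate 1 (adjusted p = 0.0538). The call against bRG was lost without any 1 of the 4 libraries compared (0.0514 to 0.318). Against bIP it did not pass by edgeR (adjusted p = 0.0986) and did by DESeq2 (0.0414). ADGRB3, the receptor of C1q-like synaptic proteins, was at 72.4 and 84.2 CPM in aRG, 81.5 and 117 in bRG, 90.0 and 88.5 in bIP, and 90.6 and 118 in N, and its log2 fold change in the 6 comparisons ran from −0.15 to 0.41 with adjusted p-values of 0.424 or more.

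Latrophilins are receptors of teneurins and FLRT proteins on facing cells, and ADGRL1 was first found as a target of a spider toxin that empties nerve terminals. ADGRL1 was at 195 and 245 CPM in aRG, 202 and 256 in bRG, 245 and 217 in bIP, and 430.3 and 528 in N. The 6 progenitor libraries spanned 195 to 256 CPM and both N libraries stood above them. N was higher than aRG (log2 fold change 1.13, SE 0.25, adjusted p = 0.013), than bRG (1.06, SE 0.25, adjusted p = 0.0268) and than bIP (1.05, SE 0.25, adjusted p = 0.0498). Each of the 3 calls depended on single libraries. Against aRG it did not hold without aRG replicate 1 (adjusted p = 0.154) and N replicate 2 (0.0844). Against bRG it was lost without bRG replicate 1 (0.281), bRG replicate 2 (0.053) and N replicate 2 (0.151), and against bIP without any 1 of the 4 libraries compared (0.0504 to 0.321). ADGRL3 was at 8.30 and 11.1 CPM in aRG, 9.73 and 13.7 in bRG, 11.3 and 20.1 in bIP, and 24.2 and 41.9 in N, so that both N libraries again exceeded the others. It was higher in N than in aRG (1.77, SE 0.43, adjusted p = 0.0218), a call lost without aRG replicate 1 (0.158), aRG replicate 2 (0.0581) and N replicate 2 (0.17). Against bRG its adjusted p was 0.0663 by edgeR and 0.0113 by DESeq2.

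ADGRL2 had another distribution, at 31.3 and 55.1 CPM in aRG, 37.9 and 37.0 in bRG, 64.1 and 92.2 in bIP, and 34.2 and 69.1 in N. Both bIP libraries lay above the 4 radial glia libraries and overlapped those of N, with 1.06, SE 0.38, adjusted p = 0.336 for bIP against bRG. ADGRL4 (ELTD1), known from endothelial cells, was low at 1.97 and 0.501 CPM in aRG, 0.778 and 1.42 in bRG, 1.79 and 2.56 in bIP, and 0.193 and 0.993 in N, with its libraries overlapping in 4 of 6 comparisons. All 8 endothelial markers were detected, and their summed level was 25.1 to 36.7 CPM over the 8 libraries. Among them CDH5 was at 10.5 and 2.18 CPM in aRG, 15.2 and 7.75 in bRG, 21.1 and 5.82 in bIP, and 28.1 and 11.3 in N, and CLDN5 at 8.42 and 16.9 CPM in aRG, 3.40 and 3.28 in bRG, 1.40 and 2.52 in bIP, and 0.657 and 0.0863 in N. CLDN5 and TEK were lower in N than in aRG (−5.06, SE 0.88, adjusted p = 0.00264, and −2.41, SE 0.61, adjusted p = 0.0263), where the libraries of ADGRL4 overlapped. Between bIP and N, both bIP libraries stood above both N libraries for ADGRL4 and for CLDN5, KDR and VWF. The libraries of PECAM1, CDH5, TIE1, TEK and ESAM overlapped in that comparison. The part of endothelial cells in the ADGRL4 level was not tested.

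ADGRG1, which binds collagen III and signals through G proteins of the G12 and G13 type, was at 283 and 253 CPM in aRG, 288 and 236 in bRG, 446 and 383 in bIP, and 258 and 132 in N. Both bIP libraries were above all others, aRG and bRG overlapped, and the N libraries differed 1.96-fold from each other. The gene passed in no comparison by edgeR. Its smallest adjusted p was for N against bIP (log2 fold change −1.09, SE 0.31, adjusted p = 0.0949, DESeq2 adjusted p = 0.0232). For bIP the log2 fold change was 0.63, SE 0.31, adjusted p = 0.413 against aRG and 0.66, SE 0.31, adjusted p = 0.545 against bRG, with differences within library numbers of 0.66 and 0.60, and 0.63 and 0.70. By RefSeq's annotation of a different chimpanzee build (NHGRI_mPanTro3-v2.0), ADGRG1 lies in a group with ADGRG5 and ADGRG3. These neighbours were low, ADGRG3 at 0.865 and 2.65 CPM in aRG, 1.36 and 1.26 in bRG, 2.64 and 2.24 in bIP, and 1.01 and 0.561 in N and ADGRG5 at 1.26 and 0.118 CPM in aRG, 1.3 and 1.39 in bRG, 0.272 and 0.826 in bIP, and 0.155 and 0.777 in N. In ADGRG3 both bIP libraries were above both of bRG and of N and overlapped those of aRG, while in ADGRG5 both bIP libraries were below both of bRG. Neither gene passed in any comparison.

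Other members of subfamily G were low, between 0 and 6.53 CPM in a library. ADGRG6 (GPR126), which Schwann cells need for myelination, was at 4.37 and 2.59 CPM in aRG, 3.08 and 4.25 in bRG, 4.93 and 6.41 in bIP, and 1.74 and 2.07 in N. Both N libraries were below the 6 others, with −1.57, SE 0.61, adjusted p = 0.237 for N against bIP. ADGRG4 was at 2.01 and 3.80 CPM in aRG, 4.12 and 5.10 in bRG, 0.699 and 2.32 in bIP, and 1.04 and 1.29 in N, with both bRG libraries the highest and −1.98, SE 0.78, adjusted p = 0.193 for N against bRG. ADGRG2, an epididymal receptor, was at 3.66 and 2.12 CPM in aRG, 5.97 and 2.21 in bRG, 3.46 and 6.53 in bIP, and 1.04 and 3.41 in N, and its libraries overlapped in all comparisons but N against bIP. ADGRG7 was at 0 and 0.324 CPM in aRG, 0.940 and 1.01 in bRG, 1.13 and 2.40 in bIP, and 1.43 and 0.561 in N, with 0 and 11 counts in aRG, and gave 3.36, SE 1.40, adjusted p = 0.31 for bIP against aRG. None of these 4 passed in any comparison.

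Subfamily E is the immune branch of the family. ADGRE5 (CD97), a leukocyte receptor that binds CD55 and THY1, was at 8.42 and 7.55 CPM in aRG, 4.34 and 5.42 in bRG, 11 and 3.34 in bIP, and 2.17 and 1.77 in N. Both N libraries were the lowest, and the bIP libraries lay on either side of bRG. By edgeR it missed the threshold for N against aRG (−2.02, SE 0.63, adjusted p = 0.0673) and N against bIP (−1.86, SE 0.63, adjusted p = 0.166), and DESeq2 called both (adjusted p = 0.00912 and 0.0363). ADGRE1, a macrophage marker in mice, had 10 to 30 counts a library. Among myeloid markers AIF1 was at 0 counts in every library and CD68 at 0.427 CPM or less, and the summed level of the 8 myeloid genes was 23.5 to 43.0 CPM, most of it from CSF1R. Whether the AIF1 row could collect reads is not known from these counts. ADGRE3 had 1 to 11 counts a library and was not tested.

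ADGRE2 was the member whose counts depended most on the genome. On the chimpanzee genome it had 0 and 0 in aRG, 3 and 15 in bRG, 36 and 2 in bIP, 2 and 2 in N, and on the human genome the same libraries had 21 and 57 in aRG, 31 and 69 in bRG, 75 and 35 in bIP, 38 and 15 in N. The sum over libraries was 60 against 341, and the log2 ratio of CPM (chimpanzee over human, 1 added to both) ran from −2.14 to −1.10, past −1 in all 8 libraries, which held for 1 of 27 members present in both tables. ADGRE3 had 45 counts against 165 and ADGRE1 142 against 168. The human table lists 27 of the 29 members, without ADGRG2 and ADGRG4. In the 24 compared members that reached a mean of 1 CPM the chimpanzee count was 1.36 to 1.99 times the human one, against 1.70 to 1.74 for library totals over the 18137 shared symbols. ADGRE5 was at 1240 against 728 counts, a ratio of 1.70. ADGRE2 and ADGRE5 carry very similar EGF-like domains, and the sources used here do not give how reads that fit more than 1 gene were counted, so both rows are uncertain. ADGRE4P, a related row of the chimpanzee table that is no member, had 3 to 53 counts a library. The population pattern of ADGRE2 is therefore given as counts without a fold, since aRG was at 0 and 3 counts is the floor in each library.

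**Figure D3:**
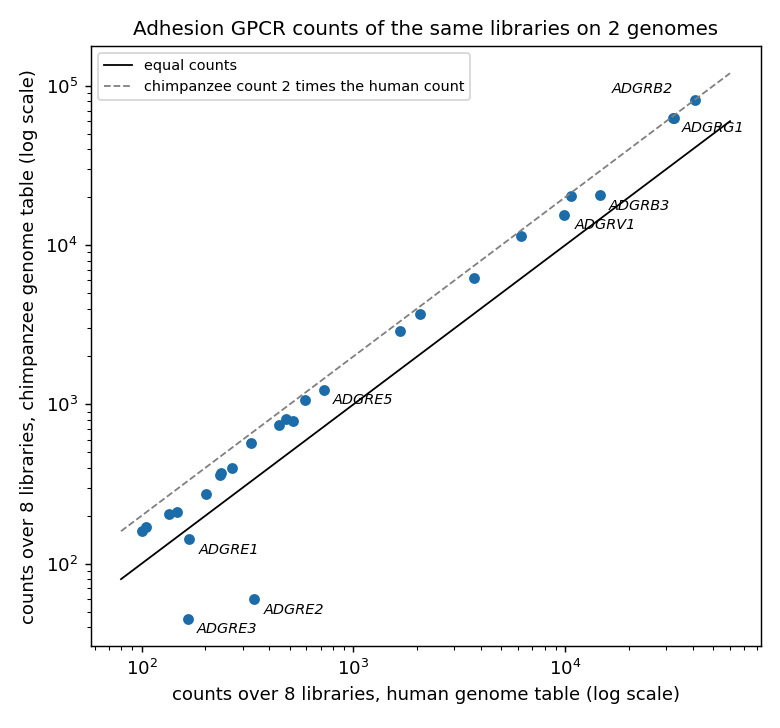
Each dot is 1 of 27 members with its counts summed over 8 libraries on the human genome (x axis) and the chimpanzee genome (y axis), both on log scales. The 24 members that reached a mean of 1 CPM lie between the line of equal counts and the dashed line at 2 times, while ADGRE1, ADGRE2 and ADGRE3 lie below the line of equal counts.

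ADGRA1, expressed mainly in brain, was at 8.85 and 9.02 CPM in aRG, 10.8 and 7.62 in bRG, 36.4 and 8.34 in bIP, and 22.5 and 2.55 in N. The libraries numbered 1 of bIP and N stood above those numbered 2, by more than any difference among radial glia, and no comparison passed. The row of its antisense transcript ADGRA1-AS1 was at 4.92 and 2.30 CPM in aRG, 3.08 and 5.64 in bRG, 9.09 and 3.46 in bIP, and 2.36 and 2.42 in N. The labels name no strand-specific step, so reads from any stretch the pair shares cannot be told apart. ADGRA2 (GPR124), which with RECK makes endothelial cells respond to WNT7, was at 1.10 and 2.71 CPM in aRG, 1.56 and 1.23 in bRG, 2.76 and 1.93 in bIP, and 1.47 and 0.345 in N. ADGRD1 (GPR133), a receptor of PTK7, was at 4.64 and 1.09 CPM in aRG, 2.46 and 4.54 in bRG, 2.52 and 11.9 in bIP, and 6.92 and 6.56 in N, with both N libraries above both of aRG and of bRG. ADGRD2 was at 1.89 and 3.04 CPM in aRG, 5.93 and 4.73 in bRG, 0.544 and 5.66 in bIP, and 2.01 and 2.16 in N. None of these passed in any comparison, and for ADGRD2 the bIP libraries alone spanned the values of all other populations but bRG library 1.

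The 5 members of subfamily F had means of 0.448 to 4.39 CPM. ADGRF1 (GPR110), a receptor of a docosahexaenoic acid derivative in neurons, was at 3.54 and 2.33 CPM in aRG, 2.95 and 3.5 in bRG, 4.62 and 1.61 in bIP, and 0.271 and 1.34 in N. Both N libraries were the lowest, and N against bRG gave −2.00, SE 0.88, adjusted p = 0.246. ADGRF5, known from lung and kidney epithelium and endothelium, was at 1.93 and 1.42 CPM in aRG, 1.78 and 1.98 in bRG, 2.45 and 2.52 in bIP, and 1.47 and 0.863 in N, with the bIP libraries the 2 highest and adjacent. ADGRF3 was at 4.13 and 4.66 CPM in aRG, 4.41 and 3.34 in bRG, 3.34 and 3.5 in bIP, and 0.928 and 3.41 in N, and overlaps SELENOI in the other assembly. ADGRF2, which RefSeq annotates as a transcribed pseudogene in that assembly, was at 0.944 and 0.0590 CPM in aRG, 1.10 and 0.221 in bRG, 1.75 and 0.865 in bIP, and 0.503 and 0.604 in N, and ADGRF4 at 0.629 and 2.06 CPM in aRG, 0.486 and 0.410 in bRG, 1.63 and 1.02 in bIP, and 0.735 and 0.173 in N. In both genes the N libraries were below those of bIP. Subfamily F had 0 calls in the 6 comparisons by edgeR and 0 by DESeq2. In that assembly 10 of the 29 members overlap another gene, among them ADGRV1, ADGRB3 and ADGRL1 to ADGRL3 with unnamed loci. Whole gene spans were compared, without exons or strand. Reads from any stretch that transcripts of both genes share cannot be told apart.

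By comparison, basal and apical radial glia differed in 0 of 28 members by edgeR and 0 by DESeq2, where edgeR called 0.00283% and DESeq2 0.334% of all genes tested. At an unadjusted p under 0.05 there was 1 member, ADGRE2, against 3.73% of all genes. Both bRG libraries were above both aRG libraries for 7 members (background 17.5%) and below for 4 (14.1%). Among members with a mean over 50 CPM in both radial glia populations, the largest difference was −0.39 for ADGRV1 (SE 0.31, differences within numbers −0.34 and −0.44), and ADGRG1 was at −0.03 (SE 0.30). Intermediate progenitors differed from aRG in 1 member, ADGRV1, which was lower (background 2.83%, 1.50% lower), and in 2 by DESeq2 (6.25%). At an unadjusted p under 0.05 there were 6 (13.3%). From bRG they differed in 0 (1.03%). There 3 members had an unadjusted p under 0.05 (9.19%), and DESeq2 called 1, ADGRV1 as lower (3.30%, where edgeR called 0.574% lower). Their libraries were above both aRG libraries for 9 members (22.1% of all genes) and above both bRG libraries for 10 (18.8%). They were below both for 3 members against aRG (20.7%) and for 4 against bRG (20.8%).

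Neurons differed from aRG in 6 members, 4 higher and 2 lower (background 9.67%, 4.87% higher and 4.80% lower). They differed from bRG in 5, 3 higher and 2 lower (6.01%, 2.62% and 3.39%), and from bIP in 2, ADGRL1 higher and ADGRV1 lower (2.54%, 1.06% and 1.48%). DESeq2 called 7 against aRG (14.6%), 6 against bRG (10.6%) and 5 against bIP (6.88%). At an unadjusted edgeR p under 0.05 there were 7 (21.8%), 8 (18.2%) and 9 (15.2%). The 3 comparisons share the N libraries and are not independent. In N against bIP, 23 of 28 members had a negative log2 fold change, a share not computed over all genes. The median was −0.86 beside −0.10 over all genes tested. Both N libraries were below both bIP libraries for 13 members (24.5% of all genes) and above for 4 (20.6%). The median was −0.42 in N against aRG (all genes −0.08) and 0.50 in bIP against aRG (all genes 0.05). Leaving out a library moved the count of N against aRG to 3 without aRG replicate 1, and of N against bRG to 3 without bRG replicate 1 and to 2 without bRG replicate 2 or N replicate 2. It moved the count of bIP against aRG to 0 without bIP replicate 1, of bIP against bRG to 1 without N replicate 1 or N replicate 2, and of N against bIP to 1 without bIP replicate 2 or N replicate 2.

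**Figure D4:**
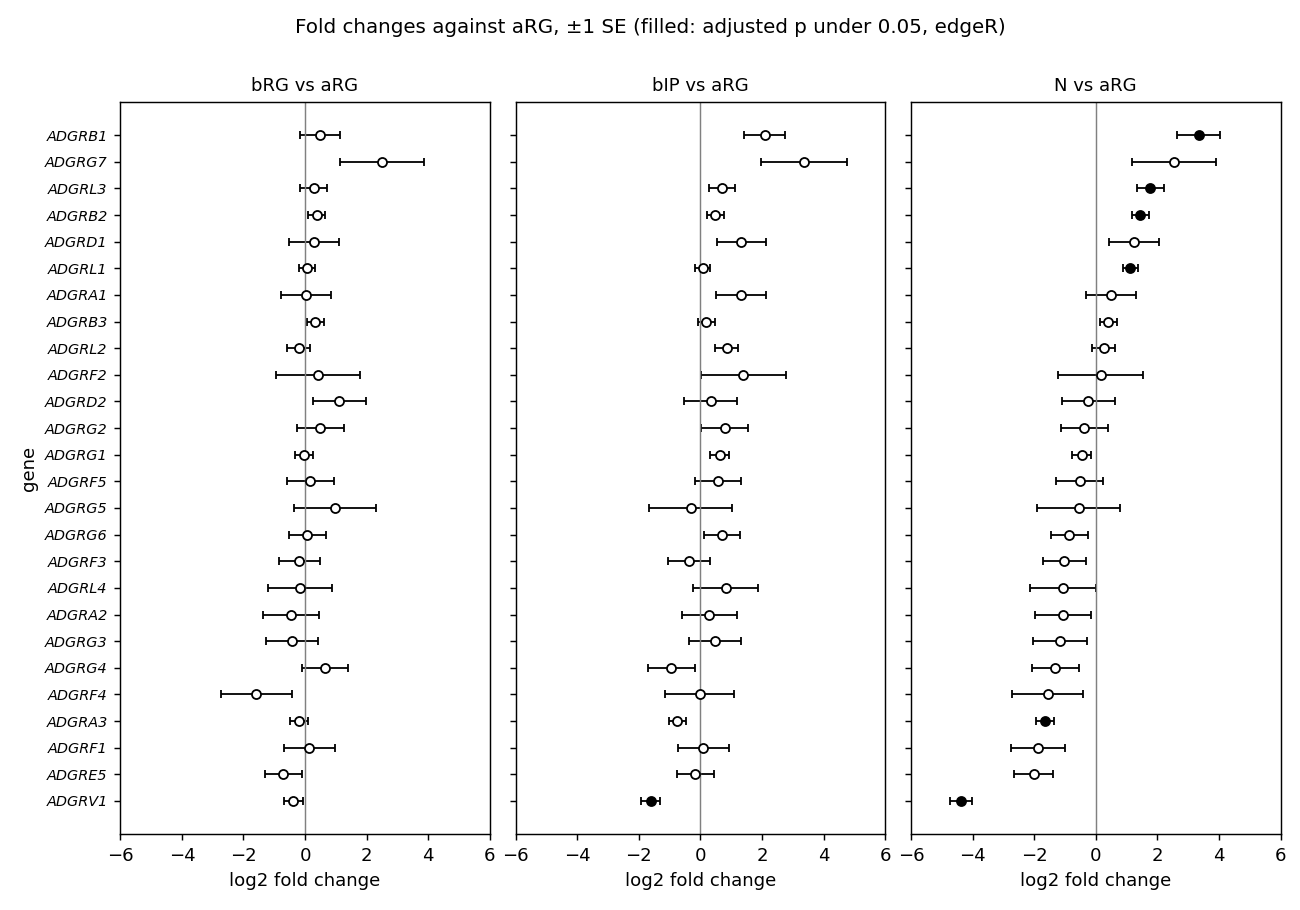
Points are log2 fold changes of the 26 members that reached a mean of 1 CPM, against aRG, with bars of 1 SE and filled points past an adjusted p of 0.05. No point is filled for bRG, 1 for bIP and 6 for N, and genes with few counts have the wide bars.

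The CELSR receptors carry cadherin repeats and act in planar polarity, and 1 of the 3 fell toward neurons while 1 rose. CELSR1 was at 70.8 and 59.2 CPM in aRG, 58.5 and 66.5 in bRG, 17.6 and 8.10 in bIP, and 0.812 and 1.60 in N, and fell from aRG to bIP (log2 fold change −2.34, SE 0.41, adjusted p = 0.00902) and from bIP to N (−3.42, SE 0.46, adjusted p = 0.00208). The 4 radial glia libraries stood above those of bIP and these above those of N. The call between aRG and bIP was lost without bIP replicate 2 (adjusted p = 0.0568). CELSR3, which guides axon tracts, was at 25.2 and 50.9 CPM in aRG, 52.3 and 115 in bRG, 263 and 268 in bIP, and 301 and 339.6 in N, and rose from aRG to bIP (2.80, SE 0.41, adjusted p = 0.00302). From bRG to N CELSR1 changed by −5.70 (adjusted p = 3.51e-05) and CELSR3 by 1.94 (0.0117), the latter lost without bRG replicate 1 (0.0677). CELSR2 was at 246 and 254 CPM in aRG, 197 and 242 in bRG, 375 and 415 in bIP, and 333 and 197 in N and passed in no comparison.

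Known partners of the family were read from lists of ligands, co-receptors and effectors. Among 13 latrophilin partners (among them teneurins, FLRT proteins and UNC5 receptors), 6 differed among the populations, in the test where 7.62% of all genes did. From aRG to N 3 rose and 3 fell (median 0.19 beside −0.08 over all genes), in the comparison where 4.87% of all genes tested were called higher and 4.80% lower. Of the 6, TENM2, FLRT3, UNC5B and UNC5C each lost the call without some single library. UNC5A, a netrin receptor, was at 9.32 and 23.0 CPM in aRG, 20.0 and 53.0 in bRG, 115 and 114 in bIP, and 182 and 222 in N and rose from aRG to N (3.64, SE 0.50, adjusted p = 0.000531). For UNC5A the aRG and bRG libraries overlapped, and those of bIP and N stood above them. FLRT3, which pairs with latrophilins and UNC5 receptors, was at 138 and 87.2 CPM in aRG, 90.2 and 64.9 in bRG, 185 and 174 in bIP, and 57.4 and 20.2 in N, highest in both bIP libraries, and fell from bIP to N (−2.21, SE 0.43, adjusted p = 0.0176), a call lost without N replicate 2 (0.0556). TENM4, a teneurin, was at 164 and 257 CPM in aRG, 116 and 179 in bRG, 417 and 646 in bIP, and 204 and 252 in N and was higher in bIP than in bRG (1.85, SE 0.33, adjusted p = 0.021) and than in aRG (1.33, SE 0.32, adjusted p = 0.0492). Without bIP replicate 2 both TENM4 calls were lost (0.139 and 0.343), without bRG replicate 1 the first (0.0977) and without aRG replicate 1 the second (0.282).

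Of 12 genes listed with the BAI receptors 3 differed among populations (7.62% of all genes). From aRG to N 2 rose and 1 fell, where 4.87% of all genes tested were called higher and 4.80% lower. RTN4RL1, 1 of the 2 risers, lost its call without aRG replicate 1 (adjusted p = 0.0697). RTN4RL2, of the Nogo receptor family, was at 1.93 and 0.590 CPM in aRG, 4.86 and 6.65 in bRG, 8.51 and 5.98 in bIP, and 17.2 and 22.2 in N and rose from aRG to N (3.98, SE 0.62, adjusted p = 0.00125), while DOCK1, the exchange factor downstream of ADGRB1 in engulfment, was at 16.2 and 19.4 CPM in aRG, 13.8 and 15.7 in bRG, 6.33 and 5.78 in bIP, and 3.29 and 1.21 in N and fell (−2.98, SE 0.52, adjusted p = 0.00284).

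**Figure D5:**
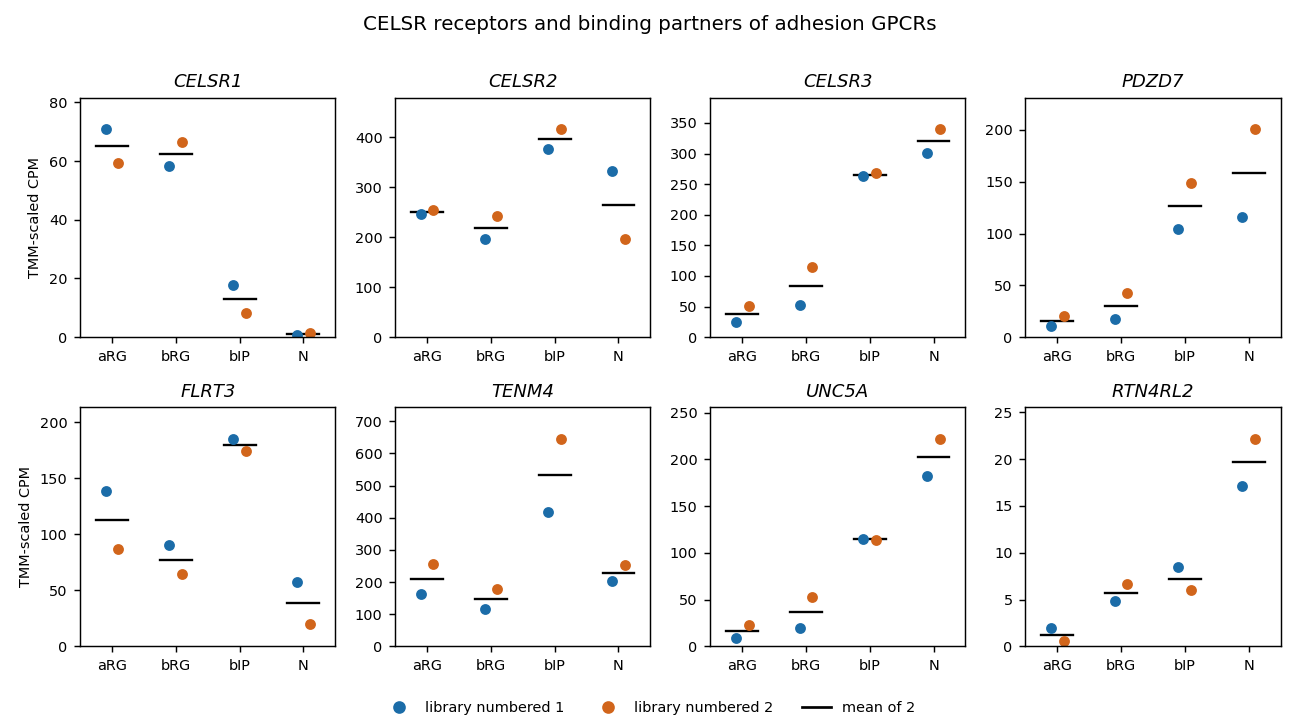
Panels plot TMM-scaled CPM by population for the 3 CELSR receptors and 5 partner genes, with a dot per library and a bar at the mean of 2, on linear axes from 0. CELSR1 is near 0 in N while CELSR3, UNC5A and RTN4RL2 are highest there, PDZD7 is higher in bIP and N than in radial glia, and FLRT3 and TENM4 are highest in both bIP libraries.

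Of 7 genes listed around ADGRG1, COL3A1 and CD9 fell and L1CAM rose from aRG to N (background 4.87% higher and 4.80% lower). COL3A1, the collagen ligand of ADGRG1, was at 56.3 and 554 CPM in aRG, 23.5 and 58.7 in bRG, 2.33 and 16.1 in bIP, and 1.04 and 0.604 in N. N was lower than aRG (−8.52, SE 1.26, adjusted p = 0.000861). Its 2 aRG libraries lay far apart, as did the summed levels of the mesenchyme list given above, of which it is a member, and the part of mesenchymal cells in its level was not tested. Of 17 further partners 3 rose (WNT7A, WNT7B and PDZD7) and 2 fell (HSPG2 and COL4A2) from aRG to N (background 4.87% higher and 4.80% lower). PDZD7, a scaffold that binds ADGRV1 in the stereocilia complex, was at 11.1 and 20.4 CPM in aRG, 17.8 and 43.1 in bRG, 104 and 149 in bIP, and 116 and 201 in N, and N was higher than aRG (3.33, SE 0.47, adjusted p = 0.000682). PDZD7 thus rose where ADGRV1 fell. WHRN, on the same list, went the other way, at 111 and 79.1 CPM in aRG and 44.9 and 14.3 in N. It missed the threshold by edgeR (−1.68, SE 0.49, adjusted p = 0.0501) and was called by DESeq2 (adjusted p = 0.00433). WNT7A and WNT7B are the ligands to which ADGRA2 and RECK lend specificity. WNT7B was at 21.4 and 47.4 CPM in aRG, 35.7 and 53.2 in bRG, 83.7 and 47.4 in bIP, and 155 and 178 in N (2.27, SE 0.41, adjusted p = 0.00328 for N against aRG). The calls of WNT7A and COL4A2 were each lost without some single library. Of 22 G proteins, arrestins, regulators and effectors 4 rose and 1 fell from aRG to N, the risers being GNAI1, GNAO1, GNAQ and ARRB1 and the faller RGS3 (background 4.87% higher and 4.80% lower). GNAO1, the abundant inhibitory G protein alpha subunit of neurons, was at 48.1 and 55.9 CPM in aRG, 69.5 and 134 in bRG, 107 and 86.1 in bIP, and 287 and 293 in N (2.48, SE 0.32, adjusted p = 0.000393). RGS4, a brake on G protein signalling, was at 1.73 and 1.86 CPM in aRG, 2.20 and 1.26 in bRG, 24.2 and 9.60 in bIP, and 1.89 and 0.993 in N, and was higher in bIP than in aRG (3.23, SE 0.66, adjusted p = 0.0199) and bRG (3.28, SE 0.66, adjusted p = 0.0381) and lower in N than in bIP (−3.54, SE 0.67, adjusted p = 0.0157). All 3 of these calls were lost without bIP replicate 1 (0.24, 0.331 and 0.147). GNAQ lost its call without aRG replicate 1, aRG replicate 2 or N replicate 2 (up to 0.144). Of 11 planar polarity genes, 10 of them tested, VANGL1 fell and FAT4 rose from aRG to N (background 4.87% higher and 4.80% lower), the call of FAT4 being lost without aRG replicate 1 (0.124). DVL1, on the same list, had 0 counts in every library, and whether its row could collect reads is not known from these counts.

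Levels were also compared between the 2 library numbers. The libraries numbered 1 have consecutive library names, as do those numbered 2, and the labels call neither a batch. ADGRA3, ADGRB1 and ADGRG1 were higher in library 1 than in library 2 of all 4 populations, and ADGRG4 and ADGRL3 higher in library 2 of all 4. This is 11.5% and 7.69% of the 26 members, where 11.5% and 11.7% of all genes tested did so. All 14 calls of members described above had the same sign within library number 1 and within number 2. In each of them the libraries of the populations compared did not overlap, so this had to hold and adds no support.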

How the data were processed

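RNA-seq read counts of 8 libraries (4 sorted populations, 2 libraries each) were analysed. The values are whole-number counts per gene symbol as deposited by the authors, 1 table on each of 2 genomes. STAR and the builds panTro6 and hg38 are named in the submitters' processing notes. The sources used here do not give the STAR version, the annotation, the counting program or the strand setting. Per the labels' protocols cDNA was amplified with 12 to 17 PCR cycles and no molecular identifiers are named, so floors on counts cover counting error only. A row without a gene name, 0.00545% to 0.00771% of counts, was left out.

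Genes of the panTro6 table were filtered with filterByExpr (35382 kept) and TMM-scaled, and all libraries entered 1 model (1 coefficient for each population, residual degrees of freedom 4) in edgeR 4.0.16 (glmQLFit, glmQLFTest, two-sided) in R 4.3.3. Benjamini-Hochberg adjustment ran over all genes within each of 6 comparisons and in the test of any difference, with a threshold of 0.05. Standard errors (SE) come from the F statistic. Differences within a library number are of log2(CPM + 0.5). The fit was tested on simulated data. DESeq2 1.42.0 (where its adjusted p is not available, no call is counted), other scalings and filters (a minimum of 5 CPM in 2 libraries), the hg38 table, halved counts (both mates of a read pair may have been counted), a replicate block and left-out libraries served as alternatives. Members whose mean reached 1 CPM in some population are given with their 8 values. Partner genes come from lists, and those given with a test had passed the threshold, at most 6 a list. CELSR2, RECK, DVL1 and WHRN are named outside this rule, chosen after their values were seen. Leaving out libraries for partner genes was added after seeing the data. Members and lists were chosen with earlier results of these data known. Of the latrophilin partners, 1 gene is not reported here. No sequences or transcript lengths were used.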

Additional observations from a re-analysis of the deposited data

How the results depend on the processing

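With only 2 libraries a population, single libraries decide several calls. Of 14 calls of single members, each recomputed under 16 alternatives, 197 values kept their direction and their side of the threshold, 27 kept the direction and missed the threshold, and 0 changed sign. Losses came from left-out libraries, from fitting only the 2 populations compared (ADGRL1 and ADGRB2), from DESeq2 size factors and from the minimum of 5 CPM (both ADGRL1 against bIP). The calls of ADGRV1, ADGRB1 and ADGRA3 between N and aRG, and of ADGRV1 between N and bRG or bIP, held under all 16.

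Counts of members called were, with DESeq2 as the test, 2 for bIP against aRG, 1 for bIP against bRG and 5 for N against bIP. With no low-count filter they were 2, 2 and 5 in the same order. With DESeq2 size factors N against bIP gave 1, and with only the 2 populations fitted N against bIP gave 1 and N against bRG 3. Leaving out 1 library gave 0 to 0 for bRG against aRG, 0 to 1 for bIP against aRG, 0 to 1 for bIP against bRG, 1 to 3 for N against bIP, 3 to 7 for N against aRG, 2 to 6 for N against bRG and 3 to 6 for any difference. A population left with 1 library was assumed to vary like the others. The human genome table and halved counts moved no count by over 1.5 times. DESeq2 size factors moved the median of all genes by −0.02 to 0.02. Library numbers are shared between populations, but the labels do not tie them to a batch, and deviations of same-numbered libraries correlated at 0.05 to 0.10 over 35382 genes, so the number was not taken as a pairing. With the replicate block the counts were 2 for bIP against aRG, 1 for bIP against bRG and 5 for N against bIP. Of 70 calls of CELSR, partner, planar polarity and G protein genes, an alternative chosen after seeing the data left out each library in turn, which kept 491 of 560 values past the threshold, lost 69 and reversed 0, with 35 calls never lost. Members under about 3 counts in a library, such as ADGRE2 and ADGRE3, are not resolved at this depth.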
